A study of Homo sapiens with 12 samples.

Results

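The 3 D-type cyclin genes (CCND1, CCND2 and CCND3) and the 7 genes of the CDK inhibitors were followed through the RNA-seq of C4.2B cells. The genes were taken by symbol as a fixed list of 10, made of 3 D-type cyclins, 3 CIP/KIP inhibitors (CDKN1A, CDKN1B and CDKN1C) and 4 INK4 inhibitors (CDKN2A, CDKN2B, CDKN2C and CDKN2D), out of the 23228 genes listed in the count files. All 10 had a row in every library. C4.2B is an established human line of castration-resistant prostate cancer. It was sequenced as polyA RNA in 4 arms of 3 libraries, named A, B and C: DMSO alone as vehicle, GDC with 0.5 µM of GDC-0941, which inhibits all class I PI3K isoforms, GSK with 5 µM of GSK126, which inhibits the methyltransferase EZH2, and COMBO with the 2 drugs at these doses. All arms spent 24 h in medium with 10% charcoal-stripped FBS, and the GSK and COMBO cells had already been in GSK126 for 6 days, so these arms differ from DMSO and GDC in the length of drug exposure as well as in the agent. The study seeded its plates in triplicate from 1 cell line, so the p-values below describe the spread between such plates.

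D-type cyclins are the regulatory subunits that turn on CDK4 and CDK6 in G1. The active kinase phosphorylates RB, which releases E2F factors and the genes of the G1/S transition. INK4 proteins bind CDK4 and CDK6 and keep D-type cyclins off them, whereas the CIP/KIP proteins bind cyclin-CDK complexes more widely and block CDK2. PI3K signalling is known to sustain cyclin D and to restrain p27, the product of CDKN1B, through FOXO factors. The gene pair CDKN2A and CDKN2B and the imprinted gene CDKN1C are textbook targets of Polycomb, whose enzyme EZH2 places the repressive mark H3K27me3.

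Each gene has its own place in the genome (GRCh38, GENCODE bounds). CCND1 lies at chr11:69641156-69654474 on the plus strand, CCND2 at chr12:4269771-4305353 on the plus strand and CCND3 at chr6:41934934-42050357 on the minus strand. CDKN1A lies at chr6:36676460-36687337 (plus), CDKN1B at chr12:12685498-12722369 (plus) and CDKN1C at chr11:2883213-2885775 (minus). CDKN2A, at chr9:21967752-21995301, and CDKN2B, at chr9:22002903-22009305, stand 7601 bp apart on the minus strand. CDKN2C lies at chr1:50960745-50974634 (plus) and CDKN2D at chr19:10566460-10569059 (minus). The CDKN2A row counts the reads of both p16INK4a and p14ARF, which share exons, so these cannot be told apart. Exons of CCND1 overlap those of LTO1 on the opposite strand over 497 bp, and exons of CDKN2A overlap CDKN2B-AS1 over 593 bp. Since the use of strand in the counting was not given in the sources used here, CCND1 and CDKN2A are uncertain to that extent. Exons of CCND2 overlap those of ENSG00000285901, a protein-coding gene on the same strand, over 999 bp. Exons of CDKN2C overlap ENSG00000290102 on the opposite strand over 617 bp. Neither was among the counted genes, so the counts of CCND2 and CDKN2C may include their reads. CCND2, CCND3 and CDKN1A have shorter exon overlaps with other uncounted genes.

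The promoters of the CDKN2A and CDKN2B pair are shown because these neighbours differed in their response to GSK126, and that of CDKN2D because it alone among the matched genes held an E2F motif. The sequences are the 250 bases before a transcription start in RefSeq (GRCh38.p14), read 5′ to 3′ on the gene's strand. In the 3 sequences of the pair the capitals mark CG dinucleotides, and in that of CDKN2D they mark the motif match. RefSeq starts were matched for 7 of the 10 genes, and not for CCND1, CCND2 and CDKN1C.
CDKN2B, chr9:22009306-22009555: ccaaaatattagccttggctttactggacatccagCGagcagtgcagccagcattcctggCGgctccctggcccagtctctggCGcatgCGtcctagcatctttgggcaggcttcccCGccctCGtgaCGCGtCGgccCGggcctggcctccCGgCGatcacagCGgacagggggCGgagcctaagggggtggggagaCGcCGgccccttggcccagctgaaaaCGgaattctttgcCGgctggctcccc
CDKN2A upstream start, chr9:21995325-21995574: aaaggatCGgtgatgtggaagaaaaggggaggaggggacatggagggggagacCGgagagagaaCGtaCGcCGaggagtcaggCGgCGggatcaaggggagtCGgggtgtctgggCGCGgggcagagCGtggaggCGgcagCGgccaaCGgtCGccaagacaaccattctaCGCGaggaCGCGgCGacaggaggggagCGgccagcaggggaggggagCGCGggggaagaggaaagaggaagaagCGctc
CDKN2A downstream start, chr9:21974858-21975107: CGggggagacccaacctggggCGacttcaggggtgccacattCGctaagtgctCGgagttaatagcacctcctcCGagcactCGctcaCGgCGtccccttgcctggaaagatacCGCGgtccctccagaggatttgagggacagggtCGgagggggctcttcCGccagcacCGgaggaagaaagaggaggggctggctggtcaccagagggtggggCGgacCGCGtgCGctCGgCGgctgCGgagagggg
CDKN2D, chr19:10568980-10569229: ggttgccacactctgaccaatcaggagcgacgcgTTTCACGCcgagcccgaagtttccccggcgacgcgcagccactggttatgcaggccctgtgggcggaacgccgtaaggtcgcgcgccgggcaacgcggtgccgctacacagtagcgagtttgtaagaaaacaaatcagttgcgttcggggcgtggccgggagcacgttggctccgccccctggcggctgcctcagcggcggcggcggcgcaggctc
The CDKN2B window held 18 CG dinucleotides, and the CDKN2A windows held 24 and 20, against a median of 11 over the 35116 promoters of the same length. The window of CDKN2D held 33. Both strands were searched for the E2F motif TTTNNCGC, which 5.92% of all promoters held, for the FOXO core GTAAACA, which 2.98% held, and for the E-box CACGTG, which 6.34% held. The FOXO core was found in no window of the 7 genes, and the E-box was found at 2 of the 3 starts of CDKN2C. A match of these letters is a description of the sequence, and the files hold no measurement of binding.

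Gene counts ranged from 8785218 to 44437751 per library, and DMSO C was the deepest. A count of 3, taken as the floor of detection, was worth 0.0675 to 0.341 CPM, the unit of all levels here, which is counts relative to the library's total. Reads in genes were 75.4 to 76.3% of reads in DMSO, 73.8 to 74.3% in GDC, 70.3 to 71.2% in GSK and 66.3 to 68.5% in COMBO. This share moved with the arms, and its part in the results was not tested. The prostate and epithelial markers KLK3 (540 to 2011 CPM), KLK2, HOXB13, KRT8, KRT18 and FOLH1 were present in every library. PTPRC, a blood cell marker, reached at most 0.330 CPM, PECAM1 at most 0.158 CPM and DES was at 0, while COL1A1, a collagen gene of fibroblasts, was measured at 10.1 to 45.9 CPM.

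CPM were scaled by TMM, and are given for replicates A, B and C in that order. A gene was called where the edgeR quasi-likelihood test gave a Benjamini-Hochberg adjusted p under 0.05 over the 14189 genes tested. All changes are log2 fold changes ± SE from that fit, with 3 libraries an arm. The 3 arms are compared with the same DMSO libraries. All 10 genes passed the filter on low counts, but not on equal grounds. CCND2 was under the filter's cutoff of 0.705 CPM in all 3 DMSO libraries and passed through the other arms. CDKN2B was over it in 2 of 3 DMSO libraries and in 0 of 3 GDC libraries. It passed through GSK and COMBO, the arms where it was highest. The values are shares of bulk RNA, in which less transcript per cell and fewer cells with the transcript cannot be told apart.

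Of the 10 genes, 6 were called in GDC, 1 higher (CDKN1C) and 5 lower (CCND3, CDKN1A, CDKN2B, CDKN2C and CDKN2D). The GDC call of CDKN2B, which was under the filter's cutoff in all 3 GDC libraries, is not read as a fall. Over all genes tested 40.1% were called in GDC, 20.0% higher and 20.0% lower. GSK changed 9, of which 6 rose (CCND1, CCND2, CDKN1A, CDKN1C, CDKN2B and CDKN2C) and 3 fell (CCND3, CDKN1B and CDKN2D), beside 75.7% of all genes called, 40.0% higher and 35.7% lower. COMBO changed 7, of which 3 rose (CCND2, CDKN1C and CDKN2B) and 4 fell (CCND3, CDKN1B, CDKN2C and CDKN2D), beside 82.5% of all genes, 43.3% higher and 39.2% lower. With library totals in place of TMM the split was 7 higher and 2 lower in GSK and 5 higher and 3 lower in COMBO. With such large shares of the transcriptome called, the number of these genes called in GSK and COMBO lies near the background, and the results lie in which genes moved, how far and in which direction.

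**Figure D1:**
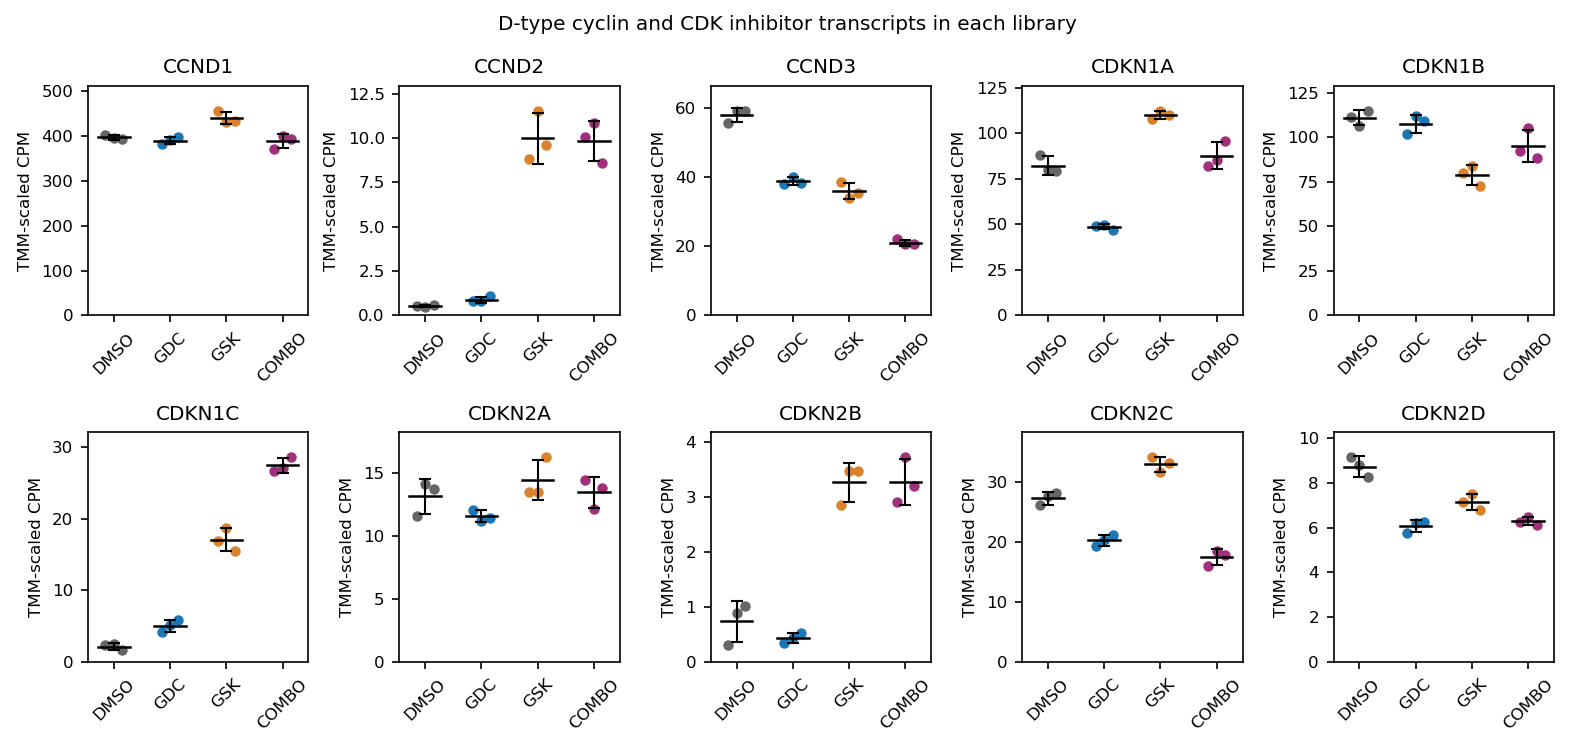
Level of each gene in every library, as TMM-scaled CPM on a linear axis from 0, by arm. Points are the 3 libraries, the long bar is their mean and the error bar the SD. CCND2 stood at 0.498 to 0.602 CPM in DMSO and at 8.59 to 11.5 CPM in GSK and COMBO, and CCND3 fell from 55.8 to 59.3 CPM in DMSO to 20.6 to 22.1 CPM in COMBO.

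Among the D-type cyclins, CCND1, the dominant one in these cells, was nearly level. It was measured at 402, 397 and 392 CPM in DMSO, at 381, 391 and 397 CPM in GDC, at 457, 432 and 434 CPM in GSK and at 371, 401 and 394 CPM in COMBO. The GSK libraries were all above the others, while DMSO, GDC and COMBO overlapped. CCND1 rose in GSK by 0.15 ± 0.04 (adjusted p = 0.00252), a fold of 1.11, and its differences from DMSO were -0.03 ± 0.04 with GDC (adjusted p = 0.643) and -0.03 ± 0.04 with COMBO (adjusted p = 0.501). The GSK call was lost with no filter (0.07, adjusted p = 0.259) and without GSK replicate A (0.09, adjusted p = 0.102). With library totals as the scale CCND1 was called higher in COMBO (0.18, adjusted p = 0.000255).

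CCND2, the D-type cyclin that is often silenced in prostate cancer, had the largest rise of the list. Its counts in DMSO were only 5, 9 and 25, or 0.526, 0.498 and 0.602 CPM. In GDC it stood at 0.795, 0.801 and 1.07 CPM, in GSK at 8.79, 11.5 and 9.58 CPM and in COMBO at 10.0, 10.8 and 8.59 CPM. The GSK and COMBO libraries overlapped each other and lay far above DMSO and GDC. CCND2 rose by 4.14 ± 0.19 with GSK (adjusted p = 2.01e-13) and by 4.12 ± 0.19 with COMBO (adjusted p = 3.68e-14). From pooled counts the ratio to DMSO was 17.9 in GSK (95% counting interval 12.8 to 25.6) and 17.7 in COMBO (12.8 to 25.2). In GDC the 3 libraries were above the 3 of DMSO, but the change of 0.66 ± 0.31 did not pass the test (adjusted p = 0.0975), and the pooled ratio of 1.59 had an interval of 0.988 to 2.55.

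CCND3, the third D-type cyclin, was the only D-type cyclin called lower than DMSO, and it was so in each arm. It was measured at 55.8, 59.3 and 59.2 CPM in DMSO, at 38.0, 40.1 and 38.4 CPM in GDC, at 38.7, 34.0 and 35.3 CPM in GSK and at 22.1, 20.6 and 20.6 CPM in COMBO. The GDC and GSK libraries overlapped, and the COMBO libraries were below both. The changes were -0.58 ± 0.06 with GDC (adjusted p = 2.51e-07), -0.70 ± 0.06 with GSK (adjusted p = 2.02e-09) and -1.47 ± 0.06 with COMBO (adjusted p = 9.47e-15), which is 0.362 of the DMSO level. COMBO was also lower than GDC by a log2 change of -0.88 ± 0.06 (adjusted p = 1.48e-10) and lower than GSK by one of -0.77 ± 0.07 (adjusted p = 1.53e-08).

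**Figure D2:**
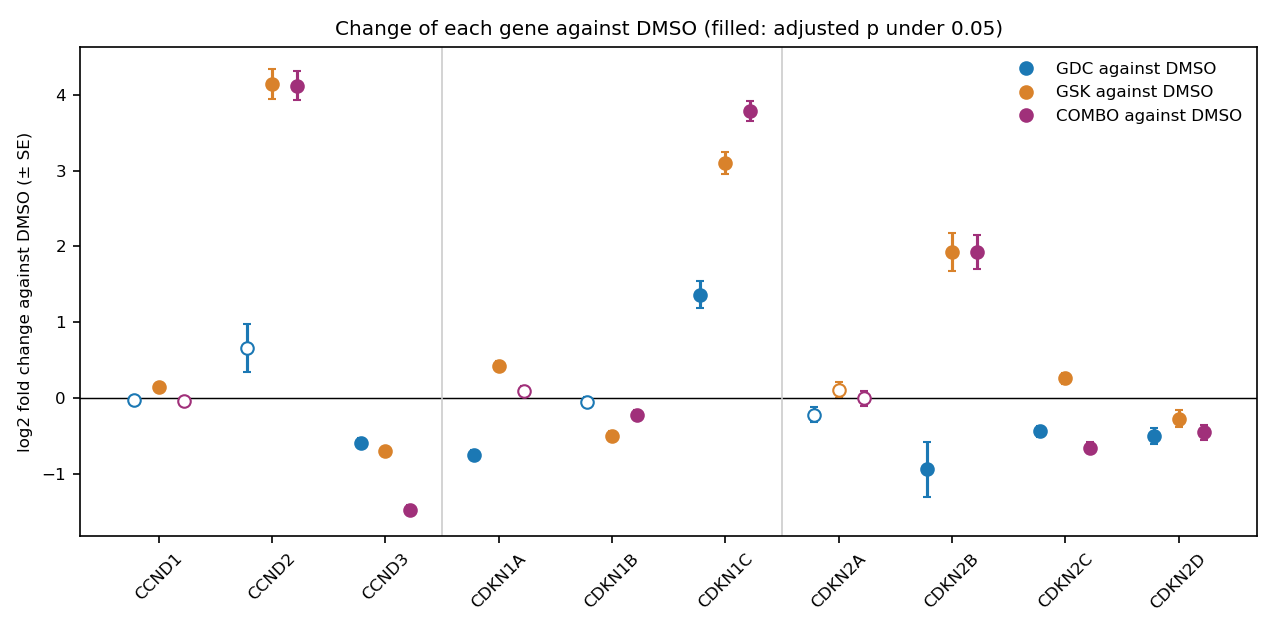
Log2 fold change against DMSO for each gene in GDC, GSK and COMBO, with the SE as bars and filled points for an adjusted p under 0.05. The 2 vertical lines part D-type cyclins, CIP/KIP and INK4 inhibitors. CCND2 and CDKN1C reached 4.12 and 3.78 in COMBO, and CCND3 reached -1.47.

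The 3 CIP/KIP inhibitors responded in 3 different ways. CDKN1A encodes p21, a classic p53 target and inhibitor of CDK2. It was measured at 88.2, 79.8 and 79.1 CPM in DMSO, at 49.2, 49.96 and 47.2 CPM in GDC, at 108, 113 and 110 CPM in GSK and at 81.9, 85.5 and 95.9 CPM in COMBO. GDC lay below every DMSO library and GSK above, while COMBO overlapped DMSO. The 2 agents thus moved it in opposite directions, by -0.75 ± 0.06 with GDC (adjusted p = 2.88e-08) and by 0.43 ± 0.06 with GSK (adjusted p = 1.75e-06). In COMBO the difference from DMSO was 0.10 ± 0.06 (adjusted p = 0.131). It was called higher in COMBO with library totals as the scale (0.30), with a mean of at least 1 CPM as the filter (0.13) and without COMBO replicate A (0.14), and its sign turned without COMBO replicate C (-0.0022).

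CDKN1B encodes p27, the inhibitor best known to be held down by PI3K and AKT signalling. Its libraries gave 112, 106 and 115 CPM in DMSO, 102, 112 and 109 CPM in GDC, 79.8, 83.6 and 72.9 CPM in GSK and 92.5, 105 and 88.1 CPM in COMBO. DMSO and GDC overlapped, and GSK lay below all others. The transcript did not pass the test in GDC (-0.05 ± 0.06, adjusted p = 0.598), fell in GSK by 0.50 on the log2 scale (SE 0.07, adjusted p = 1.28e-06) and fell in COMBO by 0.22 (SE 0.06, adjusted p = 0.00395). The COMBO call was lost with library totals as the scale (-0.01, adjusted p = 0.883).

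CDKN1C, the imprinted gene of p57, rose with each agent and most with both. It stood at 2.32, 2.49 and 1.64 CPM in DMSO, at 4.15, 5.11 and 5.90 CPM in GDC, at 16.9, 18.7 and 15.5 CPM in GSK and at 26.6, 27.1 and 28.6 CPM in COMBO. The 4 arms did not overlap. The rises were 1.36 ± 0.18 with GDC (adjusted p = 5.86e-06), 3.10 ± 0.15 with GSK (adjusted p = 2.56e-13) and 3.78 ± 0.13 with COMBO (adjusted p = 8.86e-16). The pooled counts were 135 in DMSO and 1462 in COMBO, and the scaled ratio of 14.0 had a 95% counting interval of 11.7 to 16.8. CDKN1C was higher in COMBO than in GSK by 0.68 ± 0.10 (adjusted p = 2.20e-05).

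The INK4 genes did not move as a class either. CDKN2A, which encodes p16INK4a and p14ARF, was measured at 11.6, 14.1 and 13.8 CPM in DMSO, at 12.1, 11.2 and 11.4 CPM in GDC, at 13.5, 13.5 and 16.3 CPM in GSK and at 14.5, 12.1 and 13.8 CPM in COMBO. DMSO overlapped with each of the other arms, and GDC lay just below COMBO and below GSK. The differences from DMSO were -0.21 ± 0.10 with GDC (adjusted p = 0.107), 0.11 ± 0.10 with GSK (adjusted p = 0.334) and 0.0006 ± 0.10 with COMBO (adjusted p = 0.996). In GDC the gene was called lower with no filter (-0.28) and without DMSO replicate A (-0.31), and in GSK it was called higher with library totals as the scale (0.27).

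CDKN2B, which encodes p15 and lies next to CDKN2A, had low counts without GSK126. Its counts were 3, 16 and 42 in DMSO and 4, 7 and 8 in GDC, or 0.316, 0.885 and 1.01 CPM and 0.354, 0.431 and 0.536 CPM. GSK gave 2.86, 3.48 and 3.47 CPM and COMBO gave 2.90, 3.73 and 3.20 CPM. The GSK and COMBO libraries overlapped each other and lay above all DMSO and GDC libraries. CDKN2B rose by 1.92 ± 0.25 with GSK (adjusted p = 7.05e-07) and by 1.93 ± 0.23 with COMBO (adjusted p = 1.65e-07), with pooled ratios of 3.75 (95% counting interval 2.72 to 5.21) and 3.77 (2.81 to 5.13). It passed the filter through these 2 arms, where it was highest, so its p-values carry that limit. Both calls were kept in all 13 alternatives, among them with no filter. The count in DMSO A was at the floor of 3, and DMSO C held 42 of the 61 pooled DMSO counts.

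In GDC the test called CDKN2B lower by a narrow margin, with a log2 change of -0.94 ± 0.37 (adjusted p = 0.0479), although its libraries overlapped with DMSO. No GDC library was over the filter's cutoff, and the gene was testable there only through GSK and COMBO. With only the arms compared it did not pass the filter, so no fall in GDC is concluded. The call was lost in 8 of 12 alternatives, in which the change ran from -1.14 to -0.63. It was lost without DMSO replicate B (-0.96), DMSO replicate C (-0.63), GDC replicate A (-0.87), GDC replicate B (-0.95) and GDC replicate C (-1.14).

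CDKN2C, which encodes p18, had the most counts of the INK4 genes. It was measured at 26.1, 27.6 and 28.1 CPM in DMSO, at 19.4, 20.3 and 21.2 CPM in GDC, at 34.2, 31.7 and 33.1 CPM in GSK and at 16.0, 18.5 and 17.9 CPM in COMBO. The 4 arms did not overlap, with GSK at the top and COMBO at the bottom. CDKN2C fell in GDC by 0.44 on the log2 scale (SE 0.07, adjusted p = 7.88e-05), rose in GSK by 0.26 ± 0.07 (adjusted p = 0.00215) and fell in COMBO by 0.65 (SE 0.07, adjusted p = 4.39e-08). The GSK call was lost with no filter (0.18, adjusted p = 0.0621).

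CDKN2D, which encodes p19INK4d, fell in all 3 treated arms. It stood at 9.16, 8.79 and 8.25 CPM in DMSO, at 5.75, 6.22 and 6.24 CPM in GDC, at 7.14, 7.51 and 6.78 CPM in GSK and at 6.27, 6.48 and 6.12 CPM in COMBO. Every treated library was below every DMSO library. The changes were -0.50 ± 0.11 with GDC (adjusted p = 0.00094), -0.27 ± 0.11 with GSK (adjusted p = 0.0307) and -0.45 ± 0.10 with COMBO (adjusted p = 0.000444). The GSK call was lost with library totals as the scale (-0.12), with DESeq2 (-0.31) and without GSK replicate C (-0.23).

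Adding one agent to the other was then compared directly. COMBO differed from GDC in 7 of the 10 genes, beside 76.0% of all genes (37.9% higher and 38.0% lower). CCND2 (3.46 ± 0.19), CDKN1A (0.84 ± 0.06), CDKN1C (2.42 ± 0.12) and CDKN2B (2.87 ± 0.29) were higher, and CCND3 (-0.88 ± 0.06), CDKN1B (-0.17 ± 0.06) and CDKN2C (-0.22 ± 0.08) were lower. No GDC library was over the filter's cutoff for CDKN2B, which passed through GSK and COMBO, where it was highest. Its call against GDC carries that limit, and the size of the rise rests on the low GDC counts. The calls of CDKN1B and CDKN2C were lost in 6 of 13 alternatives each, among them without GDC replicate B, GDC replicate C and COMBO replicate A (-0.11, -0.13 and -0.12 for CDKN1B, and -0.19, -0.15 and -0.12 for CDKN2C), and without COMBO replicate C for CDKN1B (-0.14). CDKN2A was called higher with library totals as the scale (0.39), with a mean of at least 1 CPM as the filter (0.28) and without COMBO replicate B (0.31). With library totals the split was 6 higher and 1 lower.

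COMBO differed from GSK in 6 of the 10 genes, beside 45.9% of all genes (19.0% higher and 26.9% lower). CDKN1B (0.28 ± 0.07) and CDKN1C (0.68 ± 0.10) were higher. CCND1 (-0.18 ± 0.04), CCND3 (-0.77 ± 0.07), CDKN1A (-0.33 ± 0.06) and CDKN2C (-0.91 ± 0.07) were lower. CCND2 and CDKN2B, both of which rose with GSK126, differed from GSK by -0.02 ± 0.12 (adjusted p = 0.919) and by 0.0039 ± 0.20 (adjusted p = 0.991).

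The interaction term measures how far COMBO departed from the sum of the log2 changes of the 2 agents. It passed the test for 4 of the 10 genes, 2 above and 2 below the sum, beside 21.4% of all genes, 4.86% above and 16.5% below. CDKN1A lay above the sum by 0.41 ± 0.09 (adjusted p = 0.00155) and CDKN1B by 0.33 ± 0.09 (adjusted p = 0.0161). CDKN2C lay below it by a log2 difference of -0.48 ± 0.10 (adjusted p = 0.00227), with a rise in GSK and its lowest level in COMBO. CDKN1C lay below it by -0.68 ± 0.21 (adjusted p = 0.0220), with rises of 1.36 and 3.10 from the single agents and 3.78 in COMBO. The call of CDKN1C was lost without DMSO replicate C (-0.33, adjusted p = 0.340), GDC replicate B (-0.61), GDC replicate C (-0.50), GSK replicate A (-0.62), GSK replicate B (-0.53) and COMBO replicate A (-0.59).

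The interactions of the other 6 genes did not pass the test. That of CCND3 was -0.18 ± 0.09 (adjusted p = 0.158), so its fall in COMBO did not differ detectably from the sum of -0.58 and -0.70. That of CCND1 was -0.15 ± 0.06 (adjusted p = 0.0633), and it was called without COMBO replicate B (-0.17, adjusted p = 0.0410). The low counts of CCND2 and CDKN2B left wide errors, with -0.68 ± 0.33 (adjusted p = 0.158) and 0.94 ± 0.42 (adjusted p = 0.121), and CDKN2B was called without DMSO replicate A (1.18, adjusted p = 0.0396).

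**Figure D3:**
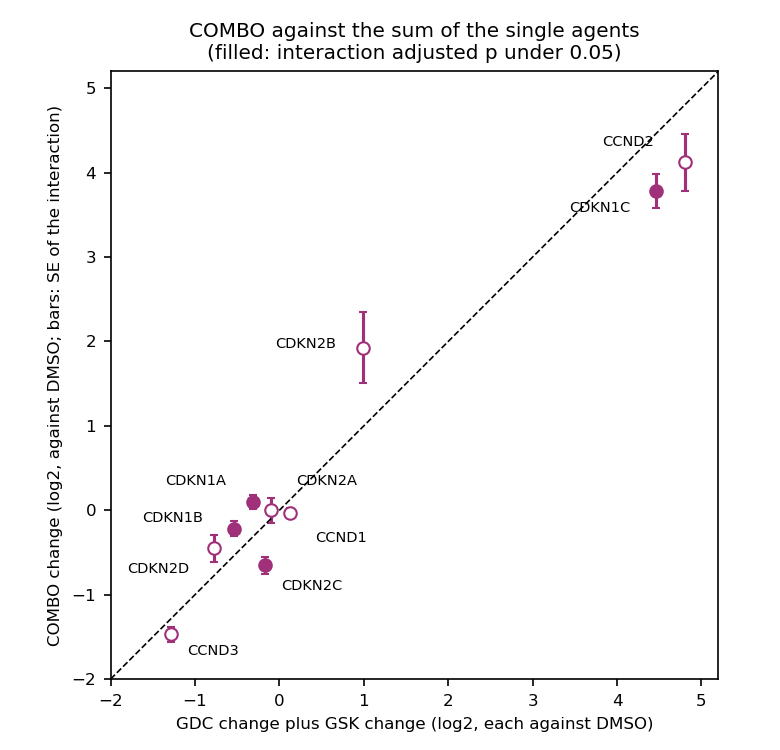
Log2 change in COMBO (vertical axis) against the sum of the GDC and GSK changes (horizontal axis), each against DMSO. Bars are the SE of the interaction, filled points have an interaction with an adjusted p under 0.05, and the dashed line marks equality. CDKN1A and CDKN1B lie above the line by 0.41 and 0.33, and CDKN1C and CDKN2C below it by interactions of -0.68 and -0.48.

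Levels of different genes were compared per length, in TPM, a library's counts divided by the union length of each gene's exons and scaled to the same total. In DMSO the order was CCND1 (368 TPM), CDKN1A (121), CDKN1B (52.9), CCND3 (44.4), CDKN2C (39.9), CDKN2D (25.6), CDKN2A (14.9), CDKN1C (3.82), CDKN2B (0.810) and CCND2 (0.299), all in TPM, and no 2 neighbours overlapped between libraries. In GDC, CCND3 (30.1 to 31.4 TPM) and CDKN2C (29.3 to 32.1 TPM) overlapped, as did CCND2 (0.452 to 0.615 TPM) and CDKN2B (0.404 to 0.614 TPM). In GSK, CDKN1C at 30.8 to 36.9 TPM overlapped with CCND3 at 28.8 to 32.7 TPM. In COMBO, CDKN1C (57.1 to 61.8 TPM) stood beside CDKN1B (51.0 to 59.5 TPM), with overlap, and CCND3 (18.7 to 20.4 TPM) beside CDKN2A (16.3 to 19.8 TPM), also with overlap. CDKN1C thus went from rank 8 of the list in DMSO and GDC to rank 5 in GSK and rank 3 in COMBO. The order depends on the length used: with the longest transcript in place of the exon union, CDKN2A had rank 5 in DMSO, at 38.1 TPM, and CDKN1C had rank 7 in GSK and rank 4 in COMBO.

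Within the D-type cyclins, CCND1 made up 89.1% ± 0.44 (SD, n = 3) of the level per length in DMSO. It made up 92.3% ± 0.19 with GDC, 92.5% ± 0.040 with GSK and 94.3% ± 0.42 with COMBO. CCND3 went from 10.8% ± 0.43 in DMSO to 4.24% ± 0.33 in COMBO. CCND2, in spite of its rise, made up only 1.25% ± 0.21 in GSK and 1.42% ± 0.17 in COMBO. With the longest transcript as length, the CCND1 share was 79.4% in DMSO and 89.9% in COMBO, and that of CCND3 was 20.6% and 8.65%. Within the CIP/KIP genes, CDKN1C went from 2.14% ± 0.45 in DMSO to 6.80% ± 1.10 in GDC, 13.2% ± 0.84 in GSK and 21.9% ± 0.45 in COMBO. CDKN1B made up 38.8% ± 0.86 in GDC and 16.3% ± 0.72 in GSK. Within the INK4 genes, CDKN2B went from 0.992% ± 0.48 in DMSO to 5.74% ± 0.62 in COMBO, and CDKN2C from 54.1% ± 1.57 in GSK to 40.6% ± 2.24 in COMBO. With the longest transcript these shares were 0.667% and 3.54% for CDKN2B and 36.8% and 25.0% for CDKN2C, and that of CDKN1C among the CIP/KIP genes was 1.76% in DMSO and 18.9% in COMBO.

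**Figure D4:**
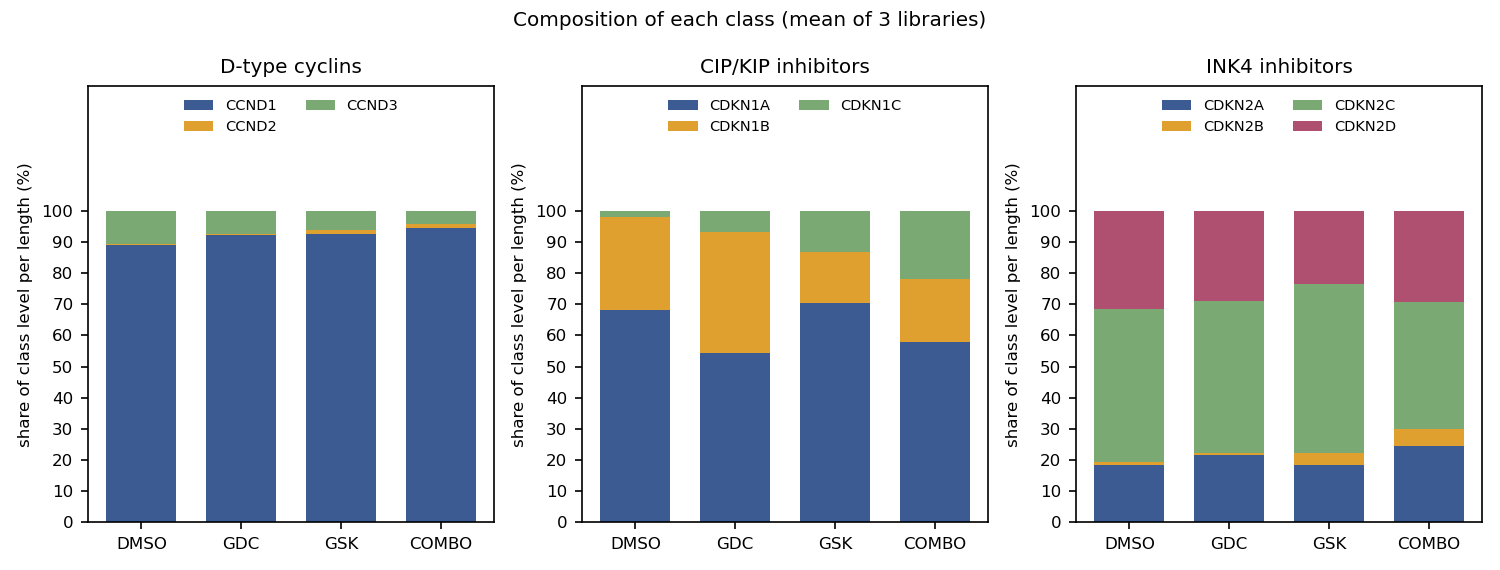
Share of each gene in the summed level per length of its class (%), as the mean of the 3 libraries of an arm, with exon-union lengths. CCND1 fills 89.1 to 94.3% of the D-type cyclin level, and CDKN1C grows from 2.14 to 21.9% of the CIP/KIP level from DMSO to COMBO.

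The nearest counted genes show whether the members' neighbourhoods moved with them. Beside CDKN2A and CDKN2B lies MTAP, a gene of methionine salvage, with 30100 bp between it and CDKN2A. MTAP went the opposite way to CDKN2B, from 81.7 to 86.8 CPM in DMSO to 24.98 to 31.1 CPM in GSK (-1.54 ± 0.07, adjusted p = 7.81e-14), and to -1.44 ± 0.06 with COMBO (adjusted p = 2.26e-14). Thus along this stretch of chromosome 9 MTAP fell, CDKN2A did not pass the test and CDKN2B rose in GSK. CDKN2B-AS1, the antisense RNA of the locus, was measured at 0.254 to 1.15 CPM over all libraries and did not pass the test in GSK (-0.09 ± 0.45, adjusted p = 0.867).

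SLC22A18AS, which lies 1568 bp from CDKN1C, was low, with 0 to 0.221 CPM in DMSO, 0.246 to 0.795 CPM in GDC, 0.549 to 1.34 CPM in GSK and 1.31 to 2.32 CPM in COMBO. It was over the filter's cutoff in all 3 libraries only in COMBO, the arm where it was highest, so its values are given as a description with no test. C12orf5, also called TIGAR, lies 2409 bp from CCND2 and was at -0.52 ± 0.06 with GDC (adjusted p = 2.09e-06), -0.08 ± 0.06 with GSK (adjusted p = 0.269) and -0.75 ± 0.06 with COMBO (adjusted p = 5.95e-10). PARP11, on the other side at 396322 bp, rose by 0.39 ± 0.07 with GDC (adjusted p = 0.0002), 0.37 ± 0.07 with GSK (adjusted p = 0.00012) and 0.70 ± 0.07 with COMBO (adjusted p = 5.19e-09).

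Around CCND3, BYSL (1887 bp away), a ribosome biogenesis gene, fell as CCND3 did, by log2 changes of -0.40 ± 0.06 with GDC (adjusted p = 6.80e-05), -1.02 ± 0.07 with GSK (adjusted p = 8.45e-11) and -1.28 ± 0.07 with COMBO (adjusted p = 5.15e-13). TAF8, 155 bp away on the other side, rose in GDC by 0.29 ± 0.06 (adjusted p = 0.00124), where CCND3 fell, and did not pass the test in GSK (-0.06 ± 0.07, adjusted p = 0.449) or COMBO (0.02 ± 0.06, adjusted p = 0.818). FAF1, 477 bp from CDKN2C, changed by -0.31 ± 0.05 with GDC (adjusted p = 4.45e-05) and by -0.78 ± 0.05 with COMBO (adjusted p = 5.94e-12), where CDKN2C fell too, and by -0.67 ± 0.05 with GSK (adjusted p = 1.94e-10), where CDKN2C rose. KRI1, 428 bp from CDKN2D, changed by -0.11 ± 0.05 with GDC (adjusted p = 0.0902), by -0.67 ± 0.05 with GSK (adjusted p = 4.43e-10) and by -0.83 ± 0.05 with COMBO (adjusted p = 4.50e-12). AP1M2, on the other side of CDKN2D, rose by 0.29 ± 0.04, 0.73 ± 0.04 and 0.70 ± 0.04 in these arms (adjusted p = 2.03e-05, 4.59e-12 and 3.40e-12). Beside CDKN1B, which fell in GSK and COMBO, CREBL2 rose by 0.24 ± 0.07 with GDC (adjusted p = 0.00741), 0.15 ± 0.07 with GSK (adjusted p = 0.0436) and 0.39 ± 0.06 with COMBO (adjusted p = 1.42e-05). APOLD1 was at -0.03 ± 0.09 with GDC (adjusted p = 0.814) and rose by 0.54 ± 0.09 with GSK (adjusted p = 1.93e-05) and 0.49 ± 0.08 with COMBO (adjusted p = 2.09e-05). The nearest counted genes that do not overlap CCND1 or CDKN1A did not pass the filter. LTO1 (ORAOV1 in the files), which overlaps CCND1, was tested, and its change was -0.14 ± 0.10 in GDC, -0.07 ± 0.11 in GSK and -0.06 ± 0.10 in COMBO, of which none passed the test (adjusted p = 0.274, 0.536 and 0.599).

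The partners of these genes were followed through 5 lists of the pathway. Of 8 kinases and activators that work with D-type cyclins and their inhibitors, 5 fell in GDC, 5 in GSK and 6 in COMBO, and none of the 8 rose in any of these arms, beside 20.0%, 35.7% and 39.2% of all genes called lower. The median change was -0.21, -0.30 and -0.59, beside 0.02, 0.06 and 0.05 over all genes tested. CDC25A, the phosphatase that activates CDK2, fell most, with -3.53 ± 0.07 with COMBO (adjusted p = 1.39e-19), and CDK2 followed with -2.18 ± 0.05 (adjusted p = 2.85e-18). With library totals as the scale, which moves the median of all genes in COMBO to 0.26, 2 of the list rose and 5 fell in COMBO.

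All 14 genes of the RB-E2F list, which D-type cyclins control through RB, fell in GSK and in COMBO, and 11 fell in GDC, beside 35.7%, 39.2% and 20.0% of all genes called lower. The median was -0.32 in GDC, -1.38 in GSK and -2.71 in COMBO. RRM2, a subunit of ribonucleotide reductase, went from 319 to 336 CPM in DMSO to 15.2 to 17.7 CPM in COMBO (-4.30 ± 0.07, adjusted p = 5.49e-21), and CDC6, a replication licensing factor, changed by -4.24 ± 0.07 (adjusted p = 7.40e-21). The interaction was below the sum for all 14, with a median of -1.03, beside 16.5% of all genes called below it and a median of -0.06 over all genes.

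Of 14 genes for the turnover of D-type cyclins and CIP/KIP proteins, 2 rose and 5 fell in GDC, 3 rose and 8 fell in GSK, and 2 rose and 10 fell in COMBO, where the median was -0.46. Over all genes the shares called higher in these arms were 20.0%, 40.0% and 43.3%, those called lower were 20.0%, 35.7% and 39.2%, and the median in COMBO was 0.05. DTL, the substrate receptor that targets p21, fell to -3.98 ± 0.10 (adjusted p = 3.41e-18), and CKS1B, the cofactor of SKP2 in p27 turnover, to -2.43 ± 0.08 (adjusted p = 1.21e-16). With library totals 4 rose and 7 fell in COMBO.

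The 16 other p53 targets were split in direction in each arm. In GDC 5 rose and 6 fell, in GSK 6 rose and 7 fell, and in COMBO 7 rose and 8 fell. In GSK and COMBO these counts lie near the shares of all genes called higher (40.0% and 43.3%) and lower (35.7% and 39.2%), and in GDC 20.0% of all genes were called in each direction. Their median in COMBO, -0.15, turned to 0.05 with library totals, and that in GSK turned from -0.11 to 0.05. SESN1, a stress-induced regulator of mTORC1 and also a FOXO target, rose by 2.63 ± 0.06 with COMBO (adjusted p = 6.14e-19), and AEN, a nuclease of apoptosis, changed by -2.07 ± 0.05 (adjusted p = 5.54e-18).

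Of 13 transcription and chromatin regulators known to act on these genes, 6 rose and 2 fell in GDC, 9 rose and 4 fell in GSK, and 8 rose and 3 fell in COMBO, with a median of 0.50. Over all genes the shares called higher were 20.0%, 40.0% and 43.3%, those called lower were 20.0%, 35.7% and 39.2%, and the median in COMBO was 0.05. FOXO3, an activator of CDKN1B, rose by 0.54 ± 0.06 with GDC (adjusted p = 5.97e-07), 1.38 ± 0.06 with GSK (adjusted p = 3.74e-14) and 2.07 ± 0.06 with COMBO (adjusted p = 2.11e-17). SMAD3, which carries TGF-beta signals to CDKN2B, rose by 2.05 ± 0.08 with COMBO (adjusted p = 3.71e-15). It also rose by 0.88 ± 0.09 with GDC (adjusted p = 3.43e-07) and by 1.45 ± 0.09 with GSK (adjusted p = 8.94e-12).

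The pattern of CDKN1C over the 12 libraries was most like that of VSTM2A (Pearson r = 0.997), GRAMD4 (0.996) and MFGE8 (0.995), out of 11292 genes compared on log2 CPM. VSTM2A had a mean of 1.27 CPM in DMSO, 2.79 CPM in GDC, 9.28 CPM in GSK and 16.2 CPM in COMBO. The pattern of CCND3 was most like that of SEC13 (r = 0.996), HMOX2 (0.994) and WARS (0.993). SEC13 had a mean of 128 CPM in DMSO, 104 CPM in GDC, 98.9 CPM in GSK and 74.98 CPM in COMBO. The libraries share 4 arms, so these values describe the order of the arms more than the spread within them.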

How the data were processed

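The authors aligned polyA RNA-seq reads to hg38 with STAR and took gene counts with HTSeq. Each library has 1 deposited file of raw counts by gene symbol. Versions, annotation and use of strand were not given in the sources used here. The deposited normalized table was not used here. The 5 summary lines of each file were left out of library sizes, and 0 columns mapped to no library.

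Counts of all genes were fitted in 1 model of the 12 libraries with edgeR 4.0.16 in R 4.3.3 (TMM, filterByExpr with a minimum count of 10, quasi-likelihood F test, two-sided, Benjamini-Hochberg over 14189 genes, threshold 0.05). The SE is the log2 change over the root of F. DESeq2 1.42.0 was run as an alternative. The fit was tried on simulated data in which few genes changed, and only in COMBO. This does not bear on scaling in data where most genes were called. Floors (3 counts) and 95% intervals of pooled counts, scaled by library size, cover counting error only. Lengths came from GENCODE v44 and matched 21420 of the listed genes (92.2%). Between replicates of an arm chi-square per degree of freedom was 1.80 to 6.50, above counting noise, so each counted as 1 sample.

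The members and the gene lists were chosen with earlier results of these data known. All 10 members are named. From each list the 2 called genes with the largest change in COMBO are named, the nearest counted gene on each side of a member is named where it passed the filter, and for the member with the largest rise and fall (mean log2 CPM of at least 2) the 3 genes most alike are named. Alternatives were another normalization, library totals, DESeq2, 2 other filters, fits of only the arms compared, a replicate block and leaving out each library. The same alternatives for the lists were added after seeing the data. Of the markers used to check the cell line, 2 are not reported here.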

Additional observations from a re-analysis of the deposited data

Results flagged for a closer look

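For 4 of the 10 genes the effect of one agent differed with and without the other, by the interaction test of the edgeR fit. Over all genes tested this share was 21.4%, with 4.86% above the sum and 16.5% below it. The log2 interaction was 0.41 for CDKN1A, 0.33 for CDKN1B, -0.68 for CDKN1C and -0.48 for CDKN2C. CDKN1A changed by -0.75 from DMSO to GDC and by -0.33 from GSK to COMBO. CDKN1B changed by -0.05 from DMSO to GDC and by 0.28 from GSK to COMBO. CDKN1C changed by 1.36 and by 0.68, and CDKN2C by -0.44 and by -0.91. Over the alternatives the interaction of CDKN1A ran from 0.36 to 0.53, that of CDKN1B from 0.25 to 0.44, that of CDKN1C from -0.77 to -0.33 and that of CDKN2C from -0.52 to -0.34. The calls of CDKN1A, CDKN1B and CDKN2C were kept in all 18 alternatives, and that of CDKN1C was lost in 6 of 18.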

How the results depend on the processing

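The 60 changes of the 10 genes were computed under 829 alternatives. In 757 the direction and the side of the threshold were kept. With the sign kept, the call was lost in 32 and a call was gained in 11. In 29 the sign turned, with or without a change of call. The number of genes called stayed within 1.5 times its value in every comparison and alternative. For 40 changes no alternative altered the direction or the call.

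The signs that turned were those of uncalled changes near 0, except that of CDKN1B in COMBO against GDC, which was called at -0.17. With library totals, which move the median of all genes from 0.06 to 0.21 in GSK, from 0.05 to 0.26 in COMBO and from 0.02 to 0.19 in COMBO against GDC, CCND1 was 0.0085 in GDC, 0.18 in COMBO and 0.17 in COMBO against GDC, where the last 2 were called. With the same scale CDKN1B was 0.0019 in COMBO against GDC and CCND2 was 0.032 in COMBO against GSK. With a mean of at least 1 CPM, CCND1 was 0.0037 in COMBO and 0.061 against GDC, and CCND2 was 0.010 against GSK. With no filter, CCND1 was 0.0092 against GDC, CCND2 0.012 against GSK and CDKN2A -0.056 in COMBO. With only the arms compared, CCND1 was 0.0014 against GDC, CCND2 0.0039 against GSK and CDKN2A -0.026 in COMBO. CDKN2A in COMBO was -0.041 with DESeq2 size factors and -0.032 with DESeq2. Leaving out 1 library at a time gave -0.037 to 0.061 for CCND1 in COMBO against GDC, -0.10 to 0.13 for CCND2 and -0.12 to 0.12 for CDKN2B in COMBO against GSK, -0.0022 to 0.14 for CDKN1A in COMBO and -0.073 to 0.078 for CDKN2A in COMBO. The cause was not tested.

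Of the correlations between same-lettered libraries 2 of 18 were over 0.1 (-0.08 to 0.19), and in 11 of 36 comparisons a library correlated best with its own letter, so the letters were not taken as pairs. A replicate block left 5 genes called in GDC, where CDKN2B was -0.90 (adjusted p = 0.0512), and changed no other call. CDKN2B had no value in GDC with only the arms compared, since it did not pass the filter there. The counts of CCND2 and CDKN2B in DMSO and GDC limit what can be said of changes under GDC.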
